A study of Rattus norvegicus with 24 samples.

Results

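The comparison asked whether IS141, an agent known here only by its code name, changed the response of cultured rat cortical cells to glutamate. The difference between glutamate and medium was taken in IS141 cultures, and the same difference in DMSO cultures was subtracted from it. This interaction is given on the log2 scale. A value below 0 means that glutamate raised a gene by less, or lowered it by more, with IS141 than with DMSO, and a value above 0 means the opposite. The libraries were chosen by their titles, and 12 of the 24 in the series belonged to the 4 groups, with 3 in each.

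All groups were total RNA of rat cortical cells, and the sources used here do not give the strain or age of the animals. Cells had been in culture for 8 days on coated plates when the medium was exchanged. The DMSO medium and IS141 medium groups received fresh growth medium, and the DMSO glutamate and IS141 glutamate groups received 250 μM glutamate in medium. Imaging of the wells followed, for 4 h. DMSO is a common solvent and served as the control. Neither the dose of IS141 nor the times at which it was added and RNA was taken are stated in these sources, and nothing says that the 3 libraries of a group came from separate cultures. P-values therefore rest on differences among the libraries of a group, and those may be technical.

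Glutamate is the main excitatory transmitter of the cortex. It opens ion channels of the NMDA and AMPA classes, and the calcium that enters switches on a programme of activity-regulated genes within minutes to hours. Prolonged exposure to high glutamate overloads neurons with calcium and injures them, which is called excitotoxicity, and protein kinases carry much of the signal from the channels to the nucleus.

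The table identifies genes by rat Ensembl IDs, and 0 of its 32754 IDs could be paired with a gene symbol in the reference used here. The labelled cell type could therefore not be checked against marker genes, the 25 gene lists and 8 marker lists gave no value, and the genes are described by ID, by level and by the pattern of their response. No function is stated for any of them. In RNA of whole wells, fewer cells of a type and less RNA per cell cannot be told apart.

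The 12 libraries held between 24795819 and 34997849 counts. One of them stood apart from its group. The DMSO medium library whose title has no number, called DMSO replicate 1 here, brought the median standard deviation of a gene within that group to 0.152 on the log2 scale. The other 7 groups of the series had medians between 0.0903 and 0.113. DMSO replicates 2 and 3 without it had 0.0764 (n = 2), which is not directly comparable with values from 3 libraries. Results are given with all libraries and without this one.

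With all libraries, the glutamate effect differed between IS141 and DMSO for 124 of 15908 genes tested, or 0.779% (edgeR quasi-likelihood test, adjusted p under 0.05). The interaction was below 0 for 89 genes (0.559%) and above 0 for 35 (0.220%). Most differences were small. Their medians were -0.51 and 0.49, and 15 of the 124 genes differed by at least 2-fold. The median interaction of all genes tested was -0.0016, and 1580 genes had an unadjusted p under 0.05. Without DMSO replicate 1, 742 of 16119 genes, or 4.60%, were called, 541 below 0 (3.36%) and 201 above 0 (1.25%), of which 153 differed by at least 2-fold. All 124 genes called with all libraries were among the 742, with the same sign. Leaving out any 1 of the other 11 libraries gave between 53 and 83 genes below 0 and between 14 and 31 above 0. The counts above and below 0 were 16 and 55 without DMSO glutamate replicate 2, 14 and 54 without IS141 glutamate replicate 2, and 19 and 53 without IS141 glutamate replicate 3. They were 16 and 70, 19 and 63, and 22 and 64 without IS141 medium replicates 1, 2 and 3.

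**Figure D1:**
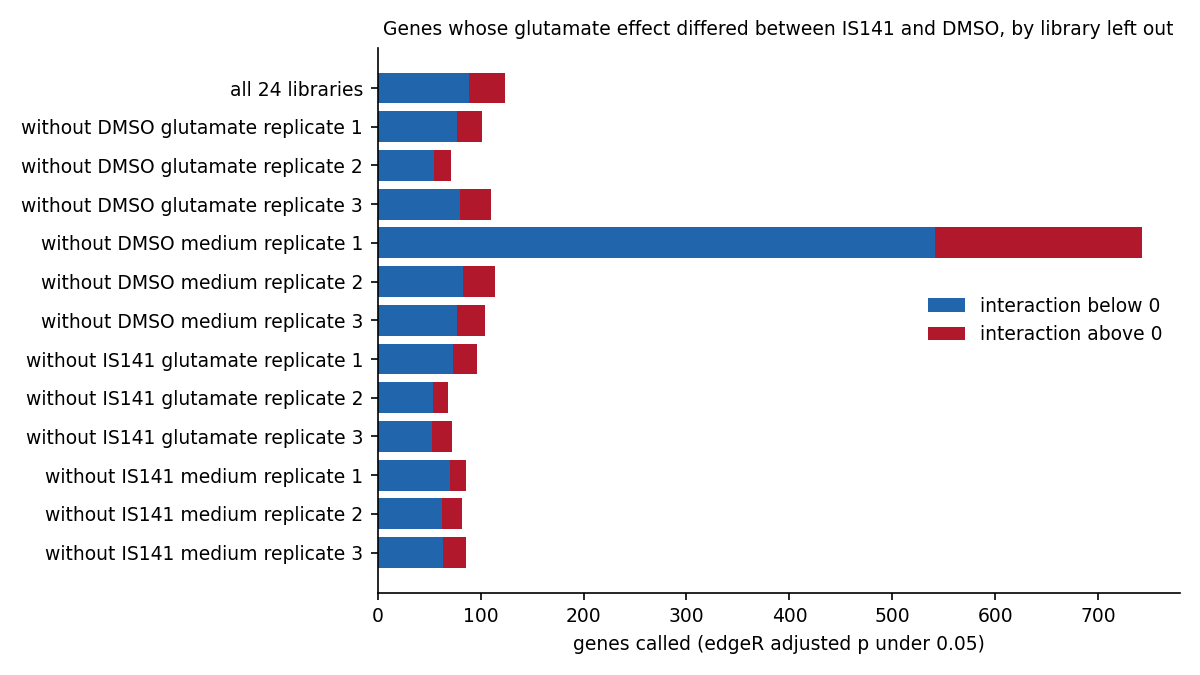
Number of genes called (x axis) with all 24 libraries and with each of the 12 compared libraries left out in turn (y axis), with interactions below 0 in blue and above 0 in red. The bar without DMSO medium replicate 1 reaches 742 genes, and the bar with all libraries 124.

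Genes with an interaction below 0 were mostly genes that glutamate raised, and raised by less with IS141. Of the 89 called with all libraries, 65 rose with glutamate in DMSO cultures, where 28.6% of all genes did. Among these, 46 also rose in IS141 cultures, 10 were not called there and 9 fell. Over all genes 28.9% rose and 30.3% fell there. The fitting shares, among all genes that rose in DMSO, were not computed. The median glutamate effect of the 65 was 0.98 in DMSO and 0.40 in IS141. A smaller set of 15 genes fell in both, with a median of -0.39 in DMSO and -0.85 in IS141, and 9 more were not called in DMSO and fell in IS141.

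The 35 genes with an interaction above 0 showed the mirror pattern in part. In DMSO cultures 20 of them fell with glutamate, where 30.5% of all genes did, with a median of -0.56 in DMSO and -0.06 in IS141. Of the 20, 9 also fell in IS141, 10 were not called there and 1 rose. A further 8 rose in both, with medians of 0.53 and 0.94, and 7 were not called in DMSO and rose in IS141. Without DMSO replicate 1, 30.1% of all genes rose with glutamate in IS141 and 31.9% fell. Of the 541 genes below 0, 417 rose in DMSO, against 29.1% of all genes, and in IS141 312 of these rose, 74 were not called and 31 fell. Shares in IS141 among all genes that rose in DMSO were not computed for this fit either. The median glutamate effect of the 417 was 1.54 in DMSO and 0.73 in IS141. A further 71 of the 541 fell in both, with medians of -0.38 in DMSO and -0.86 in IS141, and 53 were not called in DMSO and fell in IS141. Of the 201 above 0, 130 fell in DMSO, against 30.6% of all genes, with medians of -0.51 in DMSO and -0.13 in IS141. In IS141 67 of the 130 fell, 54 were not called and 9 rose. The DMSO glutamate effect is 1 part of the interaction, so these shares describe the called genes and carry no test.

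**Figure D2:**
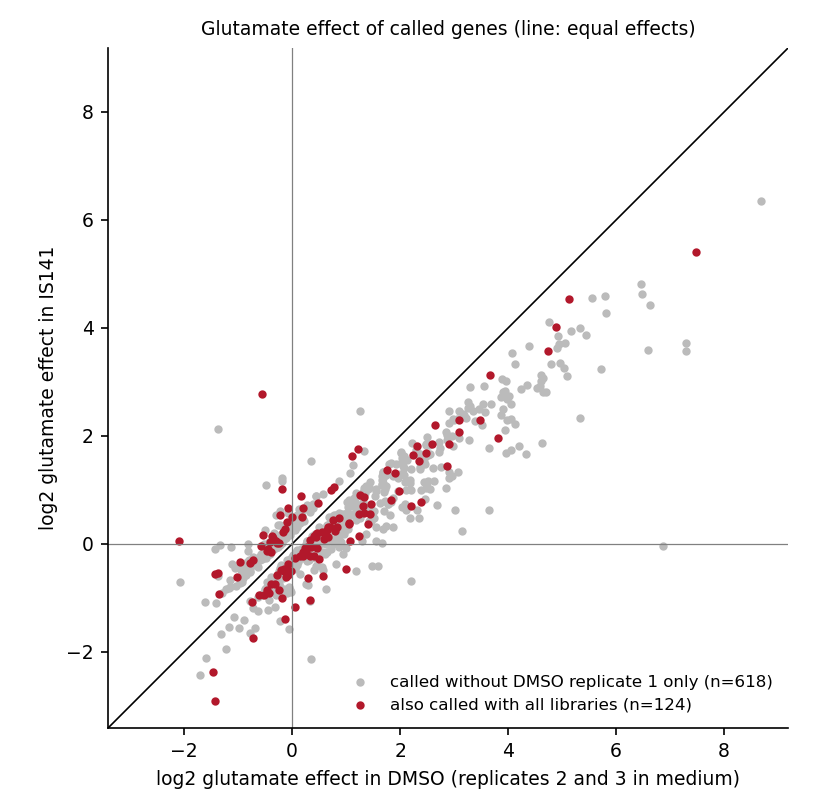
Glutamate effect (log2) in DMSO cultures, with replicates 2 and 3 as the medium libraries (x axis), against that in IS141 cultures (y axis), for the 742 genes called without DMSO replicate 1. The 124 genes also called with all libraries are red, and 541 of the 742 lie below the diagonal, where glutamate raised a gene by less or lowered it by more with IS141.

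The interaction can arise from a difference between IS141 and DMSO in medium, in glutamate or in both. Among the 89 genes below 0, 57 were called higher with IS141 in medium and were not called in glutamate, while 27 were not called in medium and were lower with IS141 in glutamate. Over all genes, 4.48% were called higher and 3.50% lower with IS141 in medium, and 4.07% higher and 4.39% lower in glutamate. For the 89 genes, the median difference between IS141 and DMSO was 0.36 in medium and -0.13 in glutamate. Over all genes it was -0.011 in medium and -0.0079 in glutamate. Genes above 0 leaned the other way. Of the 35, 18 were called higher with IS141 in glutamate and were not called in medium, 9 were called lower in medium and not called in glutamate, and 6 were both. Their medians were -0.19 in medium and 0.26 in glutamate.

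Without DMSO replicate 1 the medium side carried more of the genes below 0. Of the 541, 327 were called higher with IS141 in medium and not called in glutamate, 58 were higher in both media and 108 were lower in glutamate and not called in medium. In 419 of the 541, or 77.4%, the difference in medium was larger in size than that in glutamate. Of the 201 genes above 0 this held for 100. In that fit 7.18% of all genes were called higher and 4.81% lower with IS141 in medium, and 7.39% higher and 7.64% lower in glutamate. How often the difference in medium was the larger over all genes was not computed. Both differences are parts of the interaction that chose these genes. The counts here and with all libraries therefore carry no test.

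The largest changes were examined library by library. Candidates had a called interaction, the same sign without DMSO replicate 1, and a level averaging 1 log2 CPM or more, where CPM are counts scaled to a common library size over the 12 libraries. There were 86 such genes below 0 and 34 above 0, and 2 are given for each direction.

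ENSRNOG00000020009 had the largest interaction below 0. In medium it stood at 11.1, 7.40 and 6.57 CPM in DMSO replicates 1, 2 and 3, and at 31.1, 32.2 and 43.1 CPM in the IS141 libraries. In glutamate it stood at 1158, 1362 and 1221 CPM with DMSO and at 1509, 1550 and 1445 CPM with IS141. The IS141 libraries lay above all DMSO libraries in both media, by a much larger factor in medium. Mean levels rose with glutamate by a factor of 149 in DMSO and 42.3 in IS141. The interaction was -1.82 ± 0.25 (SE; edgeR adjusted p = 0.0014), and -2.08 ± 0.24 without DMSO replicate 1 (adjusted p = 5.64e-05). IS141 was higher than DMSO in medium by 2.08 ± 0.19 (log2; adjusted p = 4.46e-06), while the difference of 0.27 ± 0.16 in glutamate did not pass the test (adjusted p = 0.337).

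The gene with the next largest interaction below 0, ENSRNOG00000029264, was lowered by glutamate. Its level in medium was 26.1, 54.8 and 58.6 CPM in DMSO replicates 1, 2 and 3 and 49.3, 43.7 and 50.5 CPM with IS141. In glutamate it was 19.1, 25.3 and 19.0 CPM with DMSO and 6.10, 6.46 and 6.65 CPM with IS141. DMSO replicate 1 was the lowest of the 6 medium libraries, and the IS141 medium libraries lay between it and replicates 2 and 3. The groups did not overlap in glutamate, where every IS141 library was below every DMSO library. The mean was lower in glutamate than in medium by a factor of 2.20 in DMSO and 7.47 in IS141. The interaction was -1.76 ± 0.32 (SE; edgeR adjusted p = 0.0126), and -1.47 ± 0.17 without DMSO replicate 1 (adjusted p = 6.08e-06). The difference between IS141 and DMSO was -1.72 ± 0.25 in glutamate (adjusted p = 0.000552) and 0.04 ± 0.20 in medium (adjusted p = 0.94).

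The largest interaction above 0 belonged to ENSRNOG00000043451, which has low counts. It stood at 1.86, 2.65 and 2.21 CPM in DMSO medium libraries 1, 2 and 3 and at 1.18, 1.44 and 0.860 CPM in IS141 medium libraries. In glutamate its level was 2.36, 1.01 and 1.57 CPM with DMSO and 8.78, 8.91 and 6.51 CPM with IS141. Of the 12 libraries, only those of IS141 glutamate were high, with between 179 and 236 counts each, and the other 9 held between 23 and 74 counts. The glutamate effect was 2.79 ± 0.47 with IS141 (SE; edgeR adjusted p = 5.36e-05), while the value of -0.43 ± 0.49 with DMSO did not pass the test (adjusted p = 0.47). The interaction was 3.22 ± 0.68 (adjusted p = 0.034), and 3.33 ± 0.75 without DMSO replicate 1 (adjusted p = 0.0159).

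ENSRNOG00000010063 followed, at 6.31, 7.69 and 12.003 CPM in DMSO medium and 5.05, 6.16 and 6.43 CPM in IS141 medium. Its glutamate levels were 7.91, 7.99 and 10.3 CPM with DMSO and 11.98, 11.82 and 11.81 CPM with IS141. The medium groups overlapped through DMSO replicate 1, and in glutamate all IS141 libraries were above all DMSO libraries. The mean about doubled with glutamate in IS141, by a factor of 2.02, and the factor in DMSO was 1.01. The interaction was 1.01 ± 0.24 (SE; edgeR adjusted p = 0.0416), and 1.19 ± 0.20 without DMSO replicate 1 (adjusted p = 0.000338).

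**Figure D3:**
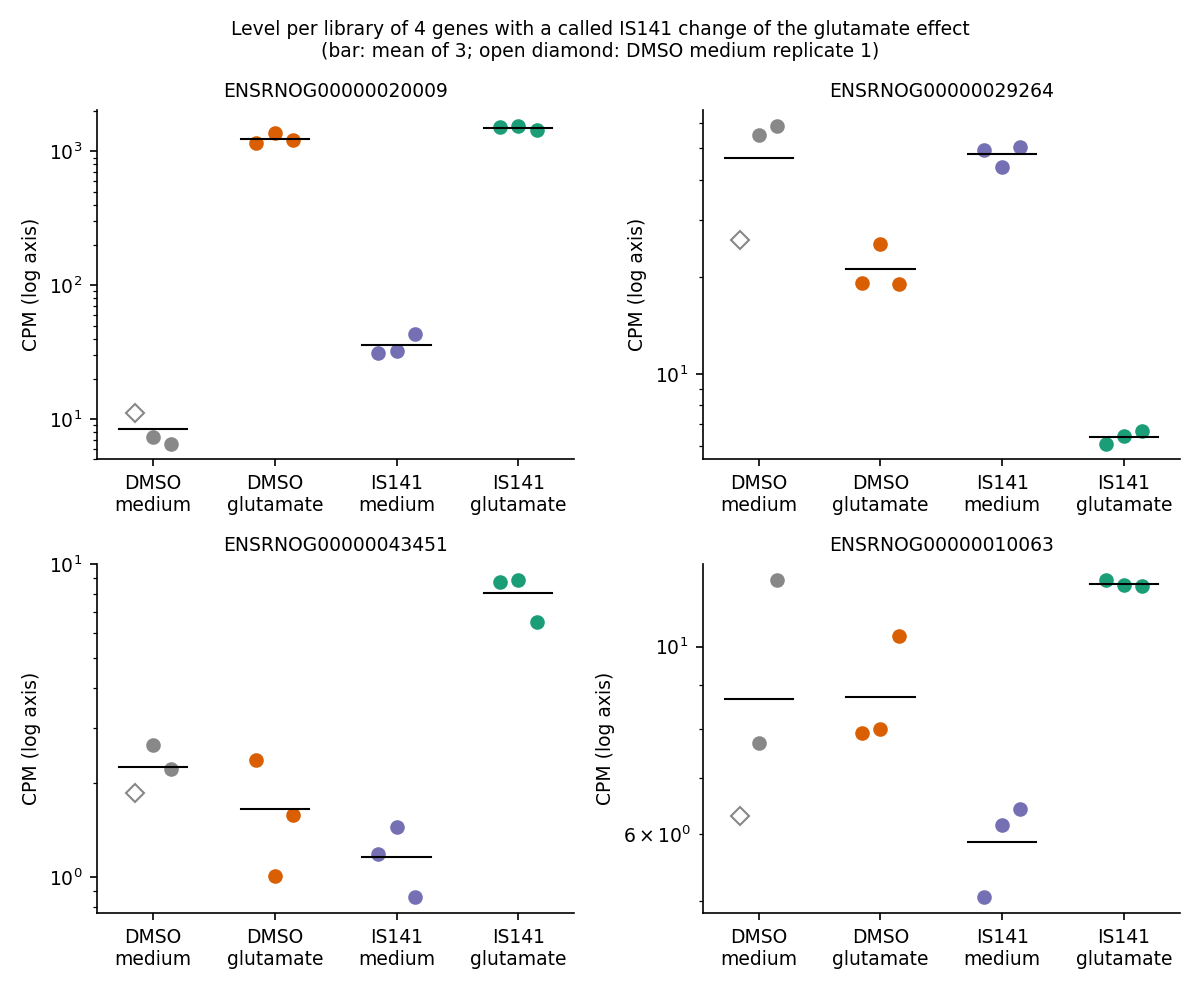
Level in CPM (log y axis) of the 4 genes in each library of the 4 groups (x axis), with a bar at the mean of 3 and DMSO medium replicate 1 as an open diamond. ENSRNOG00000020009 is highest in IS141 among the medium libraries, ENSRNOG00000029264 is lowest in IS141 glutamate, and ENSRNOG00000043451 is high in IS141 glutamate, at 6.51 to 8.91 CPM.

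The calls for the pair above 0 were lost in most fits that left out a library. ENSRNOG00000043451 missed the threshold in 10 of 12 fits that left out 1 library (adjusted p up to 0.103), and ENSRNOG00000010063 in 9 of 12 (up to 0.135), while both genes below 0 stayed called in all 12. Fitted with the 4 compared groups alone, the test called 8 genes above 0 and 22 below 0, and of the 4 genes ENSRNOG00000020009 (adjusted p = 0.0324) and ENSRNOG00000043451 (adjusted p = 0.0041) stayed called.

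Genes that respond strongly to glutamate were examined as groups. The groups were formed from the AH609 and AH236 libraries, cultures given 1 of the series' other code-named agents, which are no part of the interaction. A gene entered when glutamate changed it in both in the same direction (adjusted p under 0.05), and it was binned by the smaller of both fold changes. The groups were formed after results of these data were known, and all libraries shared the fit. There were 1199 genes raised at least 2-fold and 700 lowered at least 2-fold.

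The mean log2 CPM of the 1199 raised genes was 1.86 in DMSO replicate 1, and 1.26 and 1.27 in DMSO replicates 2 and 3. In IS141 medium it was 1.65, 1.71 and 1.71. In glutamate it was 3.25, 3.30 and 3.28 with DMSO and 3.43, 3.43 and 3.39 with IS141. DMSO replicates 2 and 3 thus lay below all IS141 medium libraries and replicate 1 lay above them, while in glutamate all 3 IS141 libraries were above all 3 DMSO libraries. The spread was widest for the 174 genes raised at least 8-fold. Their mean was 0.70 in DMSO replicate 1, -0.58 and -0.51 in replicates 2 and 3, and 0.21, 0.30 and 0.38 in IS141 medium, against 3.40, 3.48 and 3.43 with DMSO and 3.62, 3.64 and 3.55 with IS141 in glutamate.

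Whether the raised genes had a smaller or a larger glutamate response with IS141 therefore depended on the DMSO medium libraries used. With all 3, the median interaction of the 1199 genes was -0.04, beside -0.0016 over all genes, and 2.17% were called below 0, against 0.559% of all genes. With replicates 2 and 3 the median was -0.23 and 17.2% were called below 0, against 3.36%. With replicate 1 as the single DMSO medium library the median was 0.16 and 18.7% were called above 0, against 4.97%. The lone library is assumed in that fit to vary like the other groups. This last setting was added after the data had been seen.

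The size of these medians grew with the size of the glutamate response. With replicates 2 and 3 the median interaction was -0.01 for the 2869 genes raised by less than 2-fold, -0.12 for the 791 raised 2-fold to under 4-fold, -0.45 for the 234 raised 4-fold to under 8-fold and -0.81 for the 174 raised at least 8-fold. In the same order 4.04%, 12.3%, 21.8% and 33.3% were called below 0. With replicate 1 alone the medians of the same groups were -0.0039, 0.11, 0.31 and 0.45. With all 3 libraries they were -0.00077, -0.02, -0.04 and -0.18.

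Taken as a whole, the 700 lowered genes changed little with the choice. Their mean log2 CPM in medium was 2.73, 2.72 and 2.72 in DMSO replicates 1, 2 and 3 and 2.63, 2.60 and 2.64 with IS141. In glutamate it was 1.59, 1.48 and 1.54 with DMSO and 1.36, 1.35 and 1.40 with IS141. Every IS141 library was below every DMSO library in both media, and DMSO replicate 1 lay beside replicates 2 and 3. The median interaction of the 700 genes was -0.05 with all libraries, -0.07 without DMSO replicate 1 and -0.05 with it alone, and 0.429%, 2.14% and 4.14% were called below 0, against 0.559%, 3.36% and 4.33% of all genes. In the 35 genes among them lowered 4-fold to under 8-fold the interaction varied widely. Their first and last quartiles were -0.38 and 0.12 with all libraries and -0.44 and 0.01 without DMSO replicate 1. With it alone they were -0.79 and 0.41. Their median was -0.05 with all libraries, -0.18 without DMSO replicate 1 and 0.13 with it alone, so its sign turned with the choice, and 2, 2 and 4 of them were called below 0 (5.71%, 5.71% and 11.4%).

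**Figure D4:**
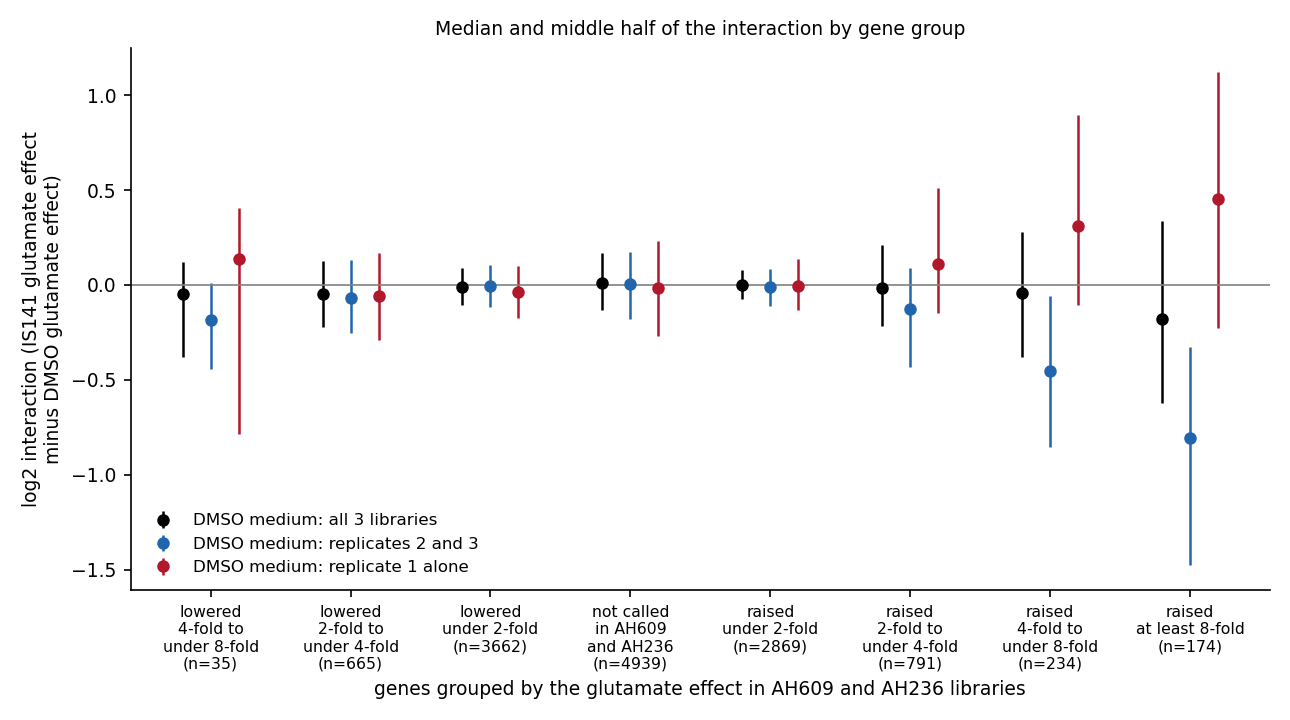
Median interaction (y axis, log2, with bars from the first to the last quartile of the genes) by size of the glutamate effect in AH609 and AH236 libraries (x axis), for 3 choices of DMSO medium libraries. For genes raised at least 8-fold the median is -0.81 with replicates 2 and 3, -0.18 with all 3 and 0.45 with replicate 1 alone, while that of genes lowered 4-fold to under 8-fold is -0.18, -0.05 and 0.13.

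DMSO replicate 1 was then compared with the other libraries over the genes called without it, for which it had not been used. Replicates 2 and 3 were among the libraries that chose these genes, and the choice favours genes in which they differ from IS141, so the values are a description with no test. Over the 541 genes below 0, the median level of replicate 1 was 0.58 (log2) above the mean of replicates 2 and 3, and the IS141 medium libraries were 0.52, 0.57 and 0.57 above it. Replicate 1 was higher than both other DMSO libraries for 470 of the 541 genes, or 86.9%, and for 42.3% of all genes tested. It was nearer to the IS141 medium mean than to that of replicates 2 and 3 for 427, or 78.9%, and for 51.6% of all genes. Over the 201 genes above 0 its median was -0.30, against -0.20, -0.16 and -0.17 in the IS141 libraries, and it was nearer to IS141 for 140, or 69.7%. Over all 16119 genes its median difference from replicates 2 and 3 was 0.0084.

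When replicate 1 took the place of replicates 2 and 3, 287 of the 541 interactions kept a sign below 0, or 53.05%, and 127 of the 201 kept a sign above 0, or 63.2%, on log2 CPM. Over all genes the sign was the same for 56.1%. In the count test with replicate 1 as the single DMSO medium library, 822 genes were above 0 and 716 below 0, or 9.29% of 16553 tested. Of the 742 genes called without replicate 1, 261 were called in that fit too, 125 with the same sign and 136 with the opposite sign. These fits share the IS141 and the DMSO glutamate libraries. The 124 genes called with all libraries kept their sign with replicate 1 as the single DMSO medium library. Replicate 1 and every other library of that fit had helped to choose these genes, so the kept sign carries no test.

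**Figure D5:**
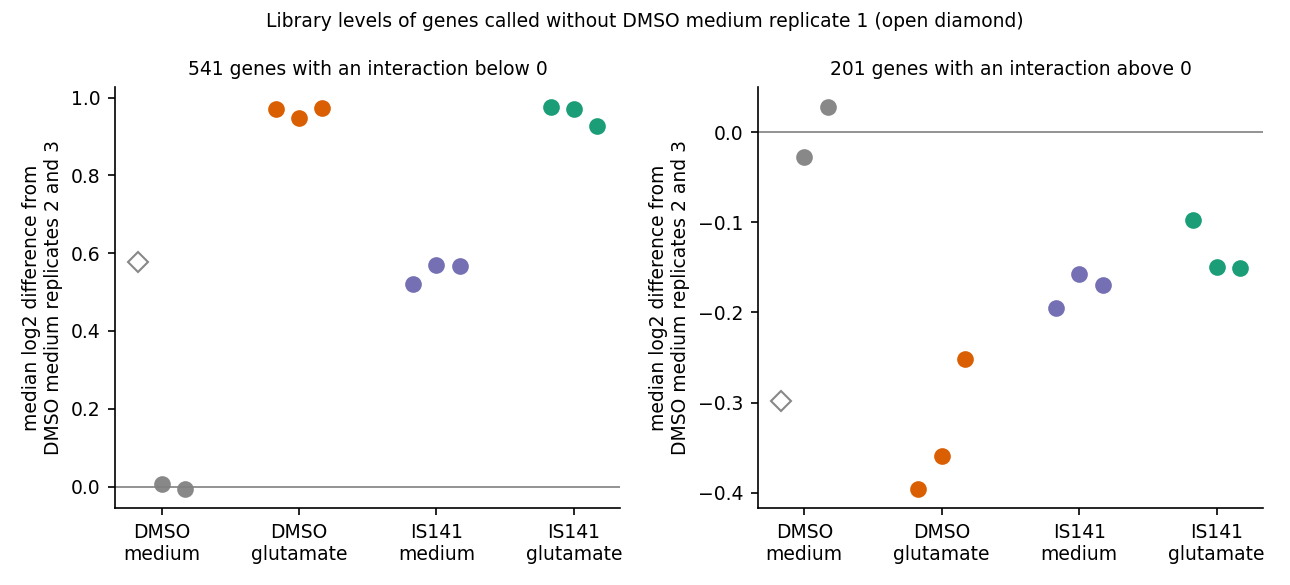
Median level of the 541 genes below 0 (left) and the 201 above 0 (right), called without DMSO replicate 1, in each library (x axis) as the log2 difference from the mean of DMSO medium replicates 2 and 3 (y axis). DMSO replicate 1, the open diamond, lies at 0.58 on the left, beside the IS141 medium libraries at 0.52 to 0.57.

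A contrast with the other agents holds no DMSO group, although the DMSO libraries stay in the shared fit and its estimate of spread. The glutamate effect differed between IS141 and AH236 cultures for 300 genes, or 1.89%, 221 of them below 0 (1.39%) and 79 above 0 (0.497%) (edgeR, adjusted p under 0.05). Of the 221, 195 rose with glutamate in AH236 cultures, where 29.5% of all genes did. With IS141 134 were higher than with AH236 in medium, against 3.73% of all genes, and 102 were lower in glutamate, against 5.61%. Of the 79 above 0, 61 fell with glutamate in AH236 cultures (31.2% of all genes), 26 were lower with IS141 in medium (4.13%) and 45 were higher in glutamate (3.04%). These effects are parts of the difference and carry no test. Between IS141 and AH609 1 gene was called, or 0.00629%, although 855 had an unadjusted p under 0.05. That gene, ENSRNOG00000014859, is named because of its value. It stood at 35.0, 35.7 and 38.7 CPM in DMSO medium and 38.6, 45.2 and 42.6 CPM in IS141 medium. In glutamate it was at 40.1, 39.3 and 45.6 CPM with DMSO and 72.3, 78.0 and 83.9 CPM with IS141. The IS141 glutamate libraries were above all others, including AH609 glutamate at 54.0, 57.9 and 65.5 CPM. AH609 medium libraries stood at 50.8, 51.1 and 59.2 CPM, above all IS141 medium libraries. Against AH609, the gene was called lower with IS141 in medium and was not called in glutamate. Its glutamate effect with IS141 exceeded that with AH609 by 0.75 ± 0.11 (log2, SE; edgeR adjusted p = 0.0115) and that with DMSO by 0.70 ± 0.11 (adjusted p = 0.00188), or 0.73 without DMSO replicate 1.

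The count against AH609 changed with the setting. With DMSO replicate 1, which is not in that contrast, left out of the shared fit, 10 genes were above 0 (0.0620%) and 85 below 0 (0.527%), or 0.589% in all, and with the compared groups alone 5 and 76. DESeq2 called 4 and 20. Against AH236 the same 3 settings gave 250 and 711 (1.55% and 4.41%, or 5.96% in all), 265 and 726, and 112 and 360. The fit without DMSO replicate 1 was added after the data had been seen. The gene called against AH609 was no longer called when IS141 glutamate replicate 2 or 3, IS141 medium replicate 1, or AH609 glutamate replicate 1 or 2 was left out.

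The 4 genes of the largest interactions differed in how far they set IS141 apart. The agents' interactions share the DMSO libraries, so their own values are set side by side. The differences were tested in the shared fit by contrasts that hold no DMSO group. ENSRNOG00000020009 had interactions of -0.40 with AH609 and -0.02 with AH236 (edgeR adjusted p = 0.8 and 0.985). The IS141 effect minus the AH236 effect was -1.79 ± 0.24 (adjusted p = 0.000705), and the difference of -1.42 ± 0.24 from AH609 did not pass (adjusted p = 0.054). In the fit without DMSO replicate 1 that difference was -1.42 ± 0.21 and passed (edgeR adjusted p = 0.00344). In medium this gene stood at 12.9, 11.03 and 19.7 CPM with AH609 and 10.1, 11.1 and 11.6 CPM with AH236, below all 3 IS141 libraries.

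For ENSRNOG00000029264 the interactions were -1.39 with AH609 (edgeR adjusted p = 0.228) and -1.76 with AH236 (adjusted p = 0.015). Without DMSO replicate 1 both passed, at -1.10 (edgeR adjusted p = 0.000809) and -1.47 (adjusted p = 3.79e-05). The IS141 effect differed from that with AH609 by -0.37 ± 0.35 (adjusted p = 0.9997) and from that with AH236 by 0.0014 ± 0.33 (adjusted p = 0.999). Its glutamate levels of 8.86, 6.31 and 7.10 CPM with AH609 and 6.08, 4.58 and 5.63 CPM with AH236 were below all DMSO glutamate libraries, as with IS141. ENSRNOG00000043451 differed by 1.41 ± 0.71 from AH609 and 1.92 ± 0.68 from AH236, and ENSRNOG00000010063 by 0.54 ± 0.24 and 0.27 ± 0.24, none of which passed the test (adjusted p = 0.942, 0.189, 0.875 and 0.678).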

How the data were processed

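RNA was sequenced in 24 libraries, with 3 in each of 8 groups taken from the sample titles. The authors deposited whole-number counts per gene without normalization. The submitters' processing notes name Rnor_6.0 and, among tools, STAR 2.7.8a, RSEM 1.3.3, cutadapt 2.3, bcl2fastq and FastQC 0.11.8. The sources used here do not give their settings or how strand was treated, and RSEM estimates counts, so genes sharing reads with copies or overlapping genes are uncertain.

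Counts were fitted with edgeR 4.0.16 in R 4.3.3 over all 24 libraries (filterByExpr, TMM, robust quasi-likelihood F test, 1 mean per group), and again without DMSO replicate 1. Benjamini-Hochberg adjustment ran over every gene tested, and genes were called at an adjusted p under 0.05. Each SE is the log2 change over the root of F. Means over gene groups used log2 CPM with a prior count of 2. Scripts were tested on simulated data. Alternatives used limma 3.58.1, DESeq2 1.42.0, other scalings and filters.

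The comparison, gene lists and rules were chosen with earlier results of these data known. Named genes were to be, with symbols, the largest called changes and list members. Without symbols the 2 IDs with the largest change in each direction are given, and no list could be read. No sequences are shown for the same reason. No pair of libraries held identical counts (0 pairs).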

Additional observations from a re-analysis of the deposited data

Results flagged for a closer look

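The 4 genes named above were flagged because their glutamate effect in IS141 cultures differed from that in DMSO cultures. They had been chosen by the size of this same interaction among the called genes, so the flag adds no support. The log2 interactions were -1.82 for ENSRNOG00000020009, -1.76 for ENSRNOG00000029264, 3.22 for ENSRNOG00000043451 and 1.01 for ENSRNOG00000010063. With DMSO replicate 1 as the single DMSO medium library they were -1.40, -2.59, 2.96 and 0.54 in the same order, and the pair below 0 stayed past the threshold (edgeR adjusted p = 0.00622 and 6.16e-08) while the pair above 0 did not (0.0753 and 0.0978). Groups of 3 libraries are too small for a test of single outlying values.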

How the results depend on the processing

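Counts are given as genes above 0 and then below 0. For the interaction with all libraries (35 and 89, 15 of them at least 2-fold), scaling by library totals gave 23 and 99, limma voom with sample quality weights 167 and 455, DESeq2 58 and 153, and the compared groups alone 8 and 22. The replicate block, with the title number as a term in the compared groups alone, gave 5 and 12. DMSO replicate 1 as the only DMSO library in medium, chosen after seeing the data, gave 822 and 716. In the last 5 of these settings 117, 23, 6, 3 and 320 genes changed by at least 2-fold. RLE size factors (34 and 89) and no filter (24 and 75) stayed within 1.5 times. Leaving out 1 library gave 14 to 201 above 0, 53 to 541 below 0 and 8 to 153 changed by at least 2-fold. Without DMSO replicate 1 (201 and 541) the compared groups alone gave 109 above 0 and the replicate block 73, and leaving out 1 more library gave 67 to 313 above 0, 311 to 666 below 0 and 97 to 165 at least 2-fold. The lowest values belong to DMSO replicate 3, whose removal leaves 1 DMSO medium library, assumed to vary like the other groups. Above 0 there were 313 without DMSO glutamate replicate 3 and 119 without IS141 glutamate replicate 2. The unfiltered fit without DMSO replicate 1 shrank the spread of all 25624 genes to the trend, and its edgeR adjusted p-values were as small as 8.87e-137.

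For IS141 minus AH609 (1 and 0), RLE gave 3 below 0, library totals 12 and no filter 2. DESeq2 gave 4 and 20, limma voom 16 and 81, the compared groups alone 5 and 76, the replicate block 11 and 89, and the fit without DMSO replicate 1 10 and 85. Leaving out 1 library gave 0 to 1 above 0 and 0 to 4 below 0. For IS141 minus AH236 (79 and 221), DESeq2 gave 360 below 0, limma voom 441 and 900, the compared groups alone 265 and 726, and the fit without DMSO replicate 1 250 and 711, and leaving out 1 library gave 23 to 71 above 0 and 114 to 213 below 0. The lowest values were those without IS141 medium replicate 3. No block could be set there, because 2 AH236 glutamate titles carry the same number.

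Whether the title numbers pair the libraries could not be settled with so few libraries per group. Same-numbered DMSO medium and DMSO glutamate libraries had correlations of 0.13, 0.04 and 0.17, and those of IS141 -0.05, -0.02 and 0.08. Same-numbered libraries of different groups had correlations of their deviations between -0.20 and 0.17, with 2 of 18 above 0.1. For libraries with different numbers they lay between -0.14 and 0.20, with 4 of 36 above 0.1. Of 12 libraries, 3 correlated best with one of their own number. Under the block ENSRNOG00000043451 stayed called. ENSRNOG00000020009, ENSRNOG00000029264 and ENSRNOG00000010063 did not (edgeR adjusted p = 0.102, 0.226 and 0.132), although their log2 interactions of -1.82, -1.81 and 0.998 hardly moved. With the block and without DMSO replicate 1 all 4 were called, with adjusted p between 1.97e-05 and 0.00185. No named gene changed sign under any setting tried. The cause of these shifts was not tested.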
